A study of Bos taurus with 30 samples.

Results

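Gene expression was compared between the embryonic disc (ED) and the extra-embryonic membranes (EEM) of day 15 bovine embryos produced in vitro (IVP). All IVP embryos from which both tissues had been sequenced were taken, which gave 10 libraries of 5 embryos (IVP10, IVP11, IVP14, IVPF13 and IVPF14) out of the 30 libraries of 17 embryos in the series. Oocytes from slaughterhouse ovaries were matured and fertilized in vitro with semen of 1 Holstein bull, the embryos were cultured without serum and transferred to recipient cows at day 7, and they were flushed from the uterus at day 15. The embryos were cut into pieces so that the ED lay in one piece and the surrounding EEM in others, and embryos in which no ED was found had been discarded before sequencing. For comparison, the same tissues of 8 embryos produced in vivo (IVV) were used, which came from superovulated and inseminated donor cows and the same bull. The recipients of the IVP embryos and the donors of the IVV embryos were few, the cow of each embryo is not in the labels, and procedure and cow cannot be told apart. The IVP embryos were the shorter ones, the length and stage of each embryo are not in the labels, and procedure and embryo size or stage cannot be told apart either.

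The ED is a small plate of epiblast cells lying on hypoblast, and it gives rise to the body of the fetus. The EEM is trophoblast lined by hypoblast, elongates before it attaches to the uterus and secretes interferon tau, the signal of pregnancy recognition in ruminants. At this age the epiblast is about to form the primitive streak, from which mesoderm and endoderm emerge under NODAL, WNT, BMP and FGF signals.

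Counts were scaled by library size to CPM, a normalised read count, with TMM factors, and the tissues were compared with edgeR's quasi-likelihood test with embryo as a block. Genes were called at a Benjamini-Hochberg adjusted p under 0.05. The 10 libraries held between 48713218 and 59358231 counts each, with a median of 53618692, and the 10 most abundant genes held 12.3% to 18.8% of a library. The ED of IVP10 stood apart from the others. Among the 468 genes called higher in the ED it had the lowest ED value of the 5 embryos for 341, and the ED of IVP14 had the highest for 330. Sex is not in the labels. XIST, examined after its values were seen, was below 1 CPM in both tissues of all 5 IVP embryos, and it was at least 10 CPM in 6 of the 8 IVV embryos.

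Markers of each tissue were set beside the labels, and the disc markers separated the libraries as labelled. The markers were chosen with earlier results of these data known, so this is a description and no independent check of the labels. SLC7A3 also had the smallest p-value of the named genes higher in the ED. In the order IVP10, IVP11, IVP14, IVPF13 and IVPF14, NANOG (Entrez 538951), a transcription factor of pluripotent epiblast, measured 3.24, 6.86, 12.5, 8.13 and 10.6 CPM in the ED and 0, 0, 0.0543, 0 and 0.0401 CPM in the EEM. EOMES, a T-box factor of epiblast and early mesendoderm, measured 1.87, 6.93, 10.01, 4.66 and 7.61 CPM in the ED and had 0 counts in each EEM library. The arginine and lysine transporter gene SLC7A3 measured 2.61, 17.0, 22.0, 13.9 and 23.4 CPM in the ED and at most 0.0401 CPM in the EEM. All 3 genes had at most 3 counts in every EEM library, so their differences are lower limits, and such limits cover counting error only. Here and below, a lower limit compares the means of the tissues over the embryos, and single embryos can lie below it. NANOG was at least 138-fold higher in the ED (adjusted p = 3.67e-06), EOMES at least 104-fold (adjusted p = 1.16e-04) and SLC7A3 at least 263-fold (adjusted p = 3.22e-06). The ED of IVP10 was lowest for each of them. SOX2 had 0 counts in all libraries and gave no information.

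Markers of trophoblast and hypoblast did not separate the tissues in this way. CDX2, a trophoblast transcription factor, measured 30.9, 113, 85.5, 17.0 and 15.3 CPM in the ED and 54.7, 118, 94.0, 111 and 21.1 CPM in the EEM of the same embryos. It was lower in the ED of all 5 embryos but by different amounts, and the difference did not pass the test (log2 fold change -0.78 ± 0.35, SE, adjusted p = 0.437). GATA2, GATA3, IFNT2, PAG2, TKDP1 and PTGS2 were not called either, and their ED and EEM ranges overlapped. The summed CPM of 29 trophoblast transcription factors ranged from 1583 to 3579 in the ED and from 1781 to 3635 in the EEM. The libraries labelled ED thus held trophoblast transcripts, and in IVPF13 CDX2 was far lower in the ED than in the EEM. The part of these transcripts in the differences below was not tested. Among hypoblast markers, HNF4A was called higher in the ED, whereas GATA4, GATA6, SOX17, FOXA2, APOA1 and FGB were not called, and AFP and TTR were at most 0.0905 CPM in all 10 libraries. In pieces of tissue, fewer cells of a type and less RNA per cell cannot be told apart.

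**Figure D1:**
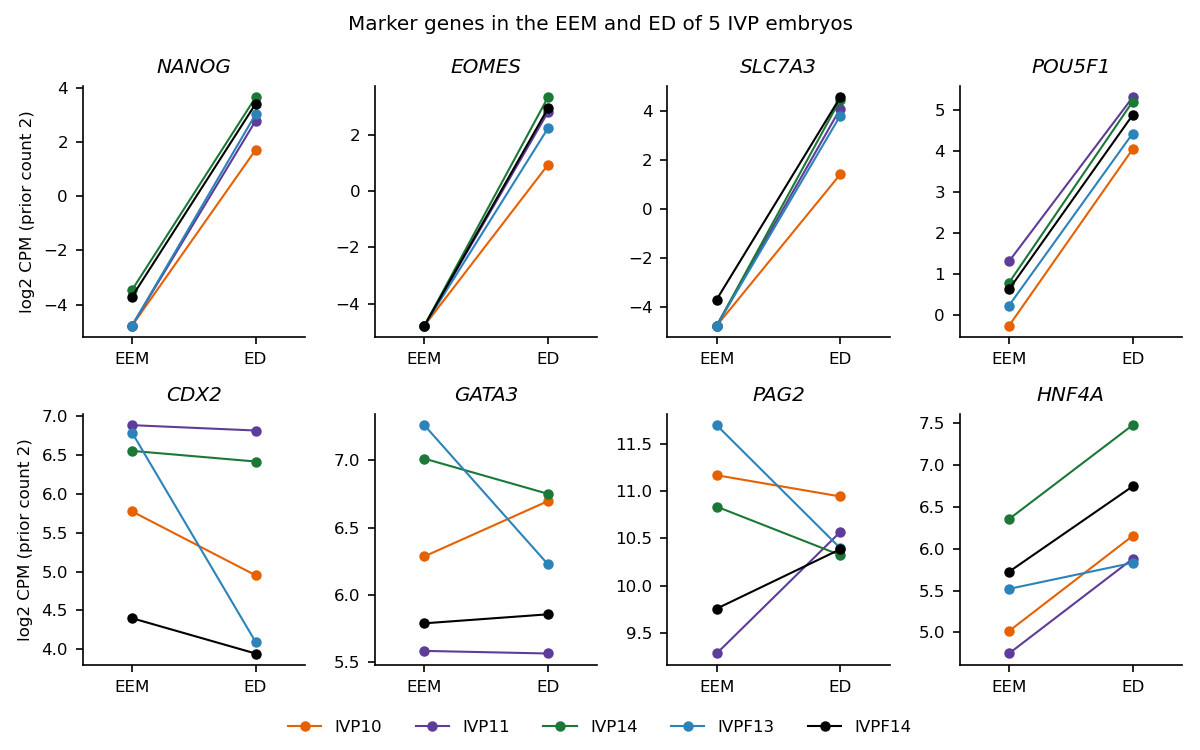
CPM on the log2 scale (prior count 2) of 8 marker genes in the EEM and the ED of the 5 IVP embryos, with a line joining the tissues of each embryo. The lines of NANOG, EOMES, SLC7A3 and POU5F1 rise steeply from EEM to ED in all 5 embryos, those of CDX2, GATA3 and PAG2 do not go one way by a like amount, and those of HNF4A rise in all 5, least in IVPF13.

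The tissues of IVP embryos differed mostly in genes that were higher in the ED. Of 14863 genes tested, 468 were called higher in the ED (3.15%) and 20 higher in the EEM (0.135%), and 1599 had an unadjusted p under 0.05. Among the genes called higher in the ED the median log2 fold change was 2.64, against -0.04 over all genes tested. The fold was under 2 for 18 of them (log2 under 1), 126 lay between 1 and 2 on the log2 scale, 204 between 2 and 4, and 120 at 4 or above. In 41 the EEM was at the floor, that is at most 3 counts in each library. The 20 genes higher in the EEM had smaller differences, with a median log2 fold change of -1.47 and a range from -3.87 to -0.78.

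**Figure D2:**
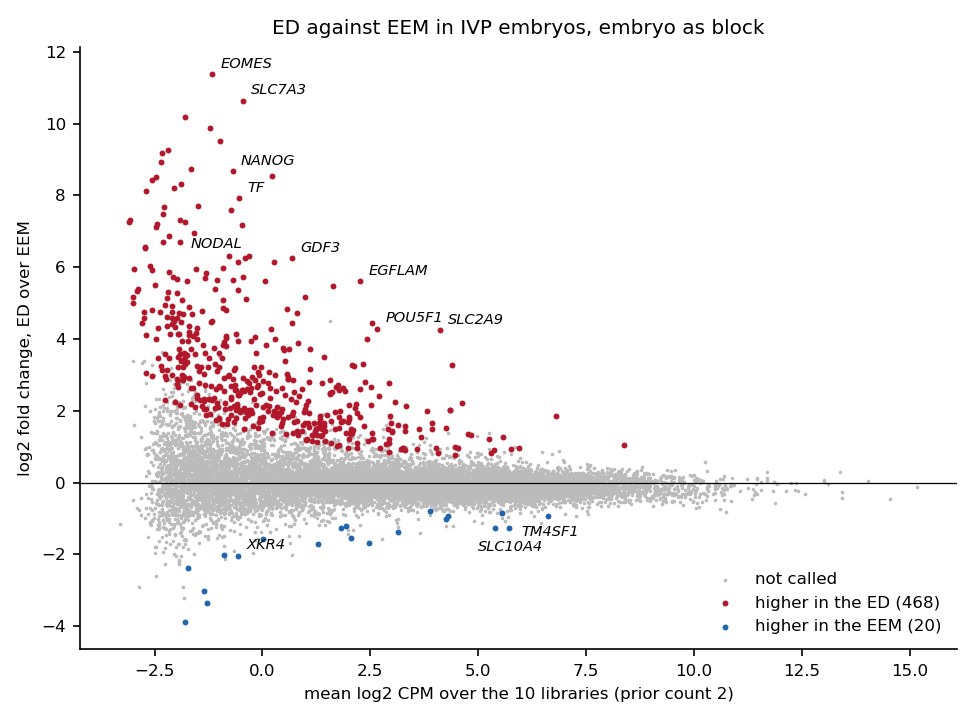
Log2 fold change of ED over EEM against mean log2 CPM (prior count 2) over the 10 libraries, 1 point per gene tested. The 468 genes called higher in the ED reach far above 0 and lie mostly at low mean CPM, and the 20 called higher in the EEM lie closer to 0; fitted fold changes of genes at the floor in the EEM are not bounds.

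Among the genes called, the direction was shared by the embryos more than the size. Of the 468 genes, 461 were higher in the ED of all 5 embryos, and of the 20 genes, 18 were higher in the EEM of all 5. The median ED minus EEM difference of the 468 genes, on the log2 CPM scale, was 1.79 in IVP10, 2.39 in IVP11, 2.84 in IVP14, 2.76 in IVPF13 and 2.18 in IVPF14. These genes were chosen by the paired test on the same embryos, which favours a shared direction. The 461, the 18 and the medians are therefore descriptions. The numbers of genes called depended on single embryos. They were 429 and 27 without IVP10, 311 and 12 without IVP11, and 249 and 10 without IVP14.

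The counts of list members called are to be read against 3.15% of all genes tested for those higher in the ED and 0.135% for those higher in the EEM, here and in the lists that follow. Genes of pluripotent epiblast were among those with the smallest p-values. Of 15 members of the epiblast and pluripotency list that were tested, 7 were called higher in the ED and 1 higher in the EEM, with a median log2 fold change of 0.97. POU5F1 (Entrez 282316), which encodes OCT4, measured 16.4, 39.6, 36.8, 21.5 and 29.3 CPM in the ED and 0.795, 2.43, 1.68, 1.13 and 1.502 CPM in the EEM. The groups did not overlap, and the log2 fold change was 4.29 ± 0.22 (SE, adjusted p = 3.22e-06). Unlike NANOG, POU5F1 was thus counted in the EEM of every embryo. GDF3, a ligand of the TGF-beta family that signals with NODAL, ranged from 1.83 to 31.5 CPM in the ED and from 0 to 0.921 CPM in the EEM (log2 fold change 6.26 ± 0.46, adjusted p = 3.19e-05), with IVP10 again the lowest ED. PRDM14, a transcription regulator of pluripotent and germ cells, rose by 4.31 on the log2 scale, and ETV5, an ETS factor induced by FGF signalling, by 1.58. FOXD3, a forkhead factor of pluripotent cells, was called with all embryos (log2 fold change 5.50 ± 0.91, adjusted p = 0.00546) but not without IVP11 (adjusted p = 0.0501). The members that were not called included SALL4, with ED values of 21.3 to 66.7 CPM and EEM values of 23.2 to 38.3 CPM.

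CRIPTO, the co-receptor of NODAL also known as TDGF1, went the other way. Its ED values were 33.3, 15.9, 67.6, 34.6 and 39.5 CPM and its EEM values 53.0, 31.8, 121, 75.0 and 66.6 CPM, so that it was higher in the EEM of each embryo although the groups overlapped. The log2 fold change was -0.86 ± 0.18 (SE, adjusted p = 0.0209). The call did not hold without IVP11 (adjusted p = 0.0503), IVP14 (0.0773), IVPF13 (0.0594) or IVPF14 (0.100). The gene was matched through a RefSeq synonym, and reads of similar copies could be shared with it.

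NODAL itself and its feedback inhibitor were disc genes. NODAL, the TGF-beta ligand that patterns the epiblast and induces the streak, measured 0.796, 7.31, 11.6, 3.11 and 13.8 CPM in the ED and 0.0611, 0.0589, 0.0906, 0.0872 and 0.100 CPM in the EEM. The ED values varied widely among embryos, with IVP10 lowest and IVPF14 highest, but none came near the EEM (log2 fold change 6.24 ± 0.50, adjusted p = 5.10e-05). LEFTY2, a secreted inhibitor of NODAL, measured 0.278, 5.36, 3.60, 0.305 and 7.00 CPM in the ED and was at the floor in the EEM. On the means it was at least 55.2-fold lower there (adjusted p = 6.77e-04). The ED values of IVP10 and IVPF13 were far below those of the other embryos, so this limit does not hold for each embryo. FOXH1, a DNA-binding partner of SMAD proteins in NODAL signalling, rose by 2.26 on the log2 scale (adjusted p = 9.99e-04). BMP6 was the BMP ligand called, at 4.799 to 25.5 CPM in the ED and 0.550 to 3.66 CPM in the EEM (log2 fold change 2.55 ± 0.29, adjusted p = 4.91e-04). BMP2 and BMP4 were not called, and BMP4 measured 10.5 ± 1.82 CPM in the ED and 10.01 ± 4.26 CPM in the EEM (mean ± SD, n = 5). In all, 5 of 29 tested members of the NODAL and BMP list were called higher in the ED and 1, CRIPTO, in the EEM, with a median log2 fold change of 0.24.

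Of the FGF list, 4 of 21 tested members were called, all higher in the ED, with a median log2 fold change of 0.46. FGF17, a ligand of the FGF8 subfamily, measured 0.444, 4.21, 4.45, 1.45 and 5.65 CPM in the ED and 0.163, 0, 0, 0.0218 and 0.0601 CPM in the EEM (log2 fold change 5.83 ± 0.96, adjusted p = 0.00525). FGF19, an endocrine FGF, ranged from 0.370 to 1.81 CPM in the ED and had 0 counts in every EEM library, at least 19.4-fold lower (adjusted p = 0.00165). Both ligands were low or at 0 in the EEM, whereas the receptor gene FGFR1 was counted well in both tissues, at 24.0 to 90.4 CPM in the ED and 7.87 to 27.2 CPM in the EEM. FGFR1 was called with all embryos (log2 fold change 1.33 ± 0.31, adjusted p = 0.0364), but not without IVP11 (adjusted p = 0.132), IVP14 (0.208) or IVPF14 (0.0932). ETV5, given above, was the other member called.

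The WNT genes called by edgeR encode secreted modulators and a receptor, and no WNT ligand gene was among them. Of 37 members tested, 4 were called, all higher in the ED, beside 3.15% of all genes, and the median log2 fold change was 0.29. DESeq2 called 6 members and limma voom 5, all higher in the ED, and 9 had an unadjusted p under 0.05 in edgeR. SFRP1, a secreted WNT antagonist, measured 4.15, 9.87, 19.3, 7.65 and 8.81 CPM in the ED and 0.999, 0.412, 1.03, 0.741 and 0.962 CPM in the EEM (log2 fold change 3.49 ± 0.38, adjusted p = 3.78e-04). DKK3, a secreted protein of the Dickkopf family, rose by 3.31 on the log2 scale (adjusted p = 0.00493). For both genes the lowest ED value was that of IVP10, and for DKK3 it lay within the range of the EEM. RSPO3, a secreted enhancer of WNT signalling (log2 fold change 1.43 ± 0.29), and its receptor gene LGR5 (3.47 ± 0.69) were called with all embryos. Neither was called without IVP11 (adjusted p = 0.105 and 0.0843) or IVP14 (0.113 and 0.129).

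Among genes of the primitive streak and mesoderm EOMES and LHX1 were called. Of 31 listed genes, 17 passed the filter on low counts in IVP embryos, and 2 of these were called higher in the ED, beside 3.15% of all genes tested, with a median log2 fold change of 0.40 over the 17. LHX1, a LIM homeobox factor of anterior mesendoderm, measured 0.315, 0.883, 1.29, 0.763 and 1.27 CPM in the ED and 0, 0.0785, 0.0725, 0.109 and 0.0401 CPM in the EEM (log2 fold change 3.95 ± 0.55, adjusted p = 0.00184). MIXL1, a homeobox factor of the streak, measured 1.54, 1.70, 3.08, 2.37 and 1.12 CPM in the ED and 1.90, 1.34, 1.88, 2.14 and 1.20 CPM in the EEM, and the tissues overlapped (log2 fold change 0.18 ± 0.29, adjusted p = 0.909). TBXT, the brachyury gene that marks the streak, was too low to be tested. It measured 0.704, 0.113, 1.403, 0 and 1.48 CPM in the ED and had 0 counts in each EEM library. MESP1, a factor of early mesoderm, was not called and measured 2.33, 1.74, 1.00, 0.534 and 0.540 CPM in the ED and 3.32, 2.95, 1.25, 4.51 and 0 CPM in the EEM. Of the endothelium and blood progenitor list edgeR called 0 of 11 tested members, with 5 at an unadjusted p under 0.05, 2 called by DESeq2 (1 in each direction) and 1 by limma voom. Of the HOX list it called 0 of 20, with 2 at an unadjusted p under 0.05 and 0 called by either of the other tools.

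Genes of the anterior epiblast and neural plate were called in both directions. Of 15 members tested, 4 were higher in the ED and 1 higher in the EEM, with a median log2 fold change of 0.25. OTX2, a homeobox factor of the anterior epiblast, measured 2.85, 9.94, 13.1, 6.54 and 14.2 CPM in the ED and 1.28, 0.471, 2.10, 1.83 and 1.34 CPM in the EEM (log2 fold change 2.68 ± 0.43, adjusted p = 0.00438). SOX21, a SOXB factor of neural tissue, ranged from 0.315 to 2.51 CPM in the ED and from 0 to 0.118 CPM in the EEM (log2 fold change 4.76 ± 0.58, adjusted p = 8.13e-04). These 2 genes did not overlap between tissues and stayed called whichever embryo was left out. SOX11, a SOXC factor (log2 fold change 2.53 ± 0.51), lost its call without IVP11 (adjusted p = 0.117). The zinc finger gene ZIC5 (log2 fold change 1.10 ± 0.23) lost it without IVP10 (adjusted p = 0.0698), IVP14 (0.133) or IVPF14 (0.11). HESX1, a homeobox repressor of the anterior neural plate, was higher in the EEM, at 2.33, 1.18, 5.32, 3.47 and 1.83 CPM in the ED and 6.38, 1.69, 13.9, 14.2 and 3.02 CPM in the EEM. Its log2 fold change was -1.22 ± 0.27 (adjusted p = 0.0298), and the call did not hold without IVP10 (adjusted p = 0.0953), IVP14 (0.153) or IVPF13 (0.108).

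Matrix genes differed in part. Of 34 tested genes for collagens, laminins and other matrix proteins, 9 were called, all higher in the ED, beside 3.15% of all genes, while the median log2 fold change over the 34 was 0.00. COL2A1 (Entrez 407142), the fibrillar collagen of cartilage and notochord, measured 1.48, 6.20, 8.21, 4.24 and 6.40 CPM in the ED and 0.0815, 0.373, 0.290, 0.305 and 0.300 CPM in the EEM (log2 fold change 4.27 ± 0.31, adjusted p = 3.19e-05). COL5A2, another fibrillar collagen, ranged from 0.611 to 4.4 CPM in the ED and was at the floor in the EEM, at least 53.7-fold lower (adjusted p = 2.05e-04). FRAS1, a basement membrane protein, rose by 5.36 and COL11A1 by 4.69 on the log2 scale. These 4 genes did not overlap between tissues and kept their calls without any single embryo. The abundant basement membrane collagen genes COL4A1 (log2 fold change -0.48 ± 0.27) and COL4A2 (-0.65 ± 0.42) were not called (adjusted p = 0.607 and 0.680), and each was higher in the EEM of 4 of the 5 embryos. COL26A1 (log2 fold change 4.10 ± 0.68) and COL4A6 (2.45 ± 0.44) lost theirs without IVP14 (adjusted p = 0.0557 and 0.0662).

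Among genes of cell junctions and the cytoskeleton, 5 of 39 tested were called, all higher in the ED, with a median log2 fold change of 0.04. VIM, the intermediate filament protein vimentin of mesenchymal cells, measured 1.07, 12.3, 5.23, 3.30 and 9.04 CPM in the ED and 0.122, 0.118, 0, 0.196 and 0.0601 CPM in the EEM (log2 fold change 5.73 ± 0.70, adjusted p = 8.34e-04). The keratin genes KRT8 and KRT18, which mark simple epithelia, were not called, and KRT8 measured 17185, 30267, 10124, 16010.0 and 16803 CPM in the ED and 11024, 32988, 10927, 13583 and 24704 CPM in the EEM. The cadherin genes CDH4, CDH11 and CDH16 and the gap junction gene GJA1 were called with all embryos, with log2 fold changes of 2.72, 4.41, 4.73 and 1.21. Without IVP14 none of these 4 was called (adjusted p = 0.201, 0.115, 0.102 and 0.146). The other embryos also decided some of these calls. CDH4 was not called without IVP11 (adjusted p = 0.168), IVPF13 (0.0913) or IVPF14 (0.0642), and GJA1 not without IVP11 (0.0919), IVPF13 (0.0621) or IVPF14 (0.0598). CDH11 was not called without IVP10 (adjusted p = 0.0850) or IVPF13 (0.0561) and CDH16 not without IVP11 (0.0723), and CDH16 was too low to be tested without IVPF14.

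Nutrient transport differed in a few genes. Of 33 amino acid transporter genes tested, 4 were called, all higher in the ED, with a median log2 fold change of 0.15. After SLC7A3, the neutral amino acid transporter SLC6A19 had the smallest p-value, at 10.04, 43.6, 103, 25.6 and 93.4 CPM in the ED and 4.57, 7.30, 19.7, 7.65 and 22.0 CPM in the EEM (log2 fold change 2.01 ± 0.24, adjusted p = 7.60e-04). SLC7A8, a neutral amino acid exchanger (log2 fold change 1.05 ± 0.21), and SLC38A1, a sodium-coupled transporter (2.02 ± 0.44), were not called without IVP11 (adjusted p = 0.0866 and 0.105), IVP14 (0.115 and 0.159) or IVPF13 (0.0574 and 0.0757), and SLC7A8 not without IVPF14 (0.0955). Of 15 genes for the transport of sugars, lactate and glycerol, 2 were called higher in the ED. SLC2A9, which carries urate and hexoses, measured 48.1, 78.3, 111, 63.3 and 86.7 CPM in the ED and 2.73, 8.09, 2.48, 1.90 and 8.93 CPM in the EEM, with no overlap (log2 fold change 4.24 ± 0.38, adjusted p = 9.23e-05). The main glucose transporter genes SLC2A1 and SLC2A3 were not called, and SLC2A3 measured 1637, 1521, 5079.9, 2431 and 2891 CPM in the ED and 1531, 1496, 4278, 2002 and 3457 CPM in the EEM. The water channel gene AQP8 (log2 fold change 2.79 ± 0.47) lost its call without IVP11 (adjusted p = 0.0533).

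Genes of hypoblast and of secreted plasma proteins differed in part. Of 24 plasma protein and hypoblast product genes tested, 6 were called higher in the ED and 1 higher in the EEM, with a median log2 fold change of 0.24. TF (Entrez 280705), the iron carrier transferrin, measured 3.94, 5.34, 14.5, 6.81 and 11.1 CPM in the ED and 0, 0, 0.0906, 0.0436 and 0.0401 CPM in the EEM (log2 fold change 7.93 ± 0.45, adjusted p = 3.67e-06). SERPINA1, the protease inhibitor alpha-1-antitrypsin, rose by 4.13 on the log2 scale (adjusted p = 0.00631) at ED values of 0.296 to 1.45 CPM. Both kept their calls without any single embryo. The apolipoprotein genes APOA2 (log2 fold change 2.76 ± 0.46) and APOC2 (2.11 ± 0.37) lost theirs without IVP11 (adjusted p = 0.0618 for APOA2) or without IVP14 (0.0572 for APOC2). MTTP, which loads lipid onto apolipoproteins, and CUBN, an endocytic receptor, were called with all embryos (log2 fold changes 1.60 ± 0.31 and 3.25 ± 0.68) but not without IVP11 (adjusted p = 0.0909 and 0.0788) or IVP14 (0.0798 and 0.0570), and CUBN also not without IVPF13 (0.0537) or IVPF14 (0.0600). APOA1, by contrast, was abundant in both tissues and not called, at 396, 1051, 1236, 757 and 921 CPM in the ED and 1835, 886, 1268, 1887 and 1224 CPM in the EEM.

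Of 17 hypoblast and endoderm transcription factor genes, 3 were called, all higher in the ED, and the median log2 fold change was -0.02. HNF4A, a nuclear receptor of visceral endoderm, measured 71.2, 58.8, 178, 56.9 and 107 CPM in the ED and 32.3, 26.8, 81.8, 45.9 and 52.9 CPM in the EEM (log2 fold change 0.96 ± 0.20, adjusted p = 0.0196). Each embryo had more in the ED, but the call held only with all 5 embryos or without IVPF13, and the adjusted p was highest without IVP14, at 0.115, and was 0.0838 without IVP10, 0.0797 without IVP11 and 0.0995 without IVPF14. PRDM1, a transcriptional repressor (log2 fold change 1.39 ± 0.23), lost its call without IVP14 (adjusted p = 0.0523). ONECUT1, a liver and endoderm factor, had 0 counts in the ED of IVP11 and 1.79 to 3.09 CPM in the other ED libraries. It lost its call without IVP10 (adjusted p = 0.0569) and was too low to be tested without IVP14. SOX17, an endoderm factor, varied widely, at 22.5, 26.3, 51.7, 3.68 and 4.95 CPM in the ED and 13.1, 45.1, 26.7, 34.6 and 6.13 CPM in the EEM, and was not called.

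The genes with the smallest p-values included several outside these lists. VRTN (Entrez 528708), a DNA-binding protein linked to vertebral number, measured 4.56, 7.67, 15.0, 7.88 and 13.3 CPM in the ED and 0.0815, 0.157, 0.163, 0.0654 and 0.200 CPM in the EEM (log2 fold change 6.15 ± 0.32, adjusted p = 3.34e-06). HAS2, which makes hyaluronan, measured 1.41, 6.20, 13.4, 5.13 and 11.05 CPM in the ED and at most 0.0218 CPM in the EEM, at least 124-fold lower (adjusted p = 3.67e-06). ACSM2B, a medium-chain acyl-CoA synthetase, was at least 97.0-fold and DZIP1, a ciliary protein, at least 44.7-fold higher in the ED. In each of these genes the lowest ED value was many times the highest EEM value. TKTL1, a transketolase-like enzyme, rose by 7.59, JAKMIP2, a microtubule-binding protein, by 6.16, and AIF1L, an actin-binding protein, by 4.0 on the log2 scale. EGFLAM, the matrix protein pikachurin, measured 6.44, 39.7, 66.1, 33.8 and 60.5 CPM in the ED and 0.448, 0.903, 0.797, 0.262 and 1.52 CPM in the EEM (log2 fold change 5.61 ± 0.43, adjusted p = 3.76e-05). LCK, a SRC family kinase best known from T cells, measured 6.32, 8.04, 19.5, 10.3 and 17.2 CPM in the ED and 0.143, 0.628, 0.254, 0.327 and 0.361 CPM in the EEM (log2 fold change 5.16 ± 0.39, adjusted p = 3.80e-05). All 15 genes higher in the ED with the smallest p-values kept their calls whichever of the 5 embryos was left out.

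Markers of maternal blood were examined beside LCK. The leukocyte antigen gene PTPRC was at most 0.0401 CPM, HBB at most 0.0741 CPM and HBA at most 0.389 CPM in the 10 libraries. Of the maternal blood list, 4 members were tested and 1, the T cell receptor component CD3D, was called higher in the ED, at 0.130 to 1.52 CPM against 0.0654 to 0.321 CPM in the EEM (log2 fold change 2.12 ± 0.45). CD3D lost its call without IVP11 (adjusted p = 0.105), IVP14 (0.129), IVPF13 (0.0818) or IVPF14 (0.102). The list's 17 genes found summed to 9.83 to 19.7 CPM in the ED and 6.62 to 23.3 CPM in the EEM. Of 10 tested genes of the maternal uterus edgeR called 0, with 2 at an unadjusted p under 0.05 and 1 called by DESeq2 and by limma voom. PAEP had 0 counts and SERPINA14 was at most 0.0393 CPM in the 10 libraries. Of 11 tested germ cell genes, 2 were called higher in the ED, PRDM1 and PRDM14, both given above.

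Among trophoblast genes PAG12, TKDP4 and PEG10 were called, each higher in the ED, as were most genes called in IVP embryos. Of 27 trophoblast transcription factor genes edgeR called 0, with a median log2 fold change of -0.21, and of 4 interferon tau genes also 0. At an unadjusted p under 0.05 there were 2 and 1 of them, and DESeq2 and limma voom called 0 of either list. With 3.15% and 0.135% of all genes called, a count of 0 in lists of this length is near the background and no result about these genes. IFNT2, an interferon tau gene, measured 263, 91.7, 88.3, 142 and 150.3 CPM in the ED and 516, 78.2, 159, 638 and 58.0 CPM in the EEM. Higher values stood in the EEM of IVP10, IVP14 and IVPF13 and in the ED of IVP11 and IVPF14, so that the embryos did not share a direction. Of 6 pregnancy-associated glycoprotein genes, which encode secreted trophoblast proteins, PAG12 was called (log2 fold change 1.67 ± 0.29, adjusted p = 0.00664), and it lost the call without IVP10 (adjusted p = 0.0506) or IVP11 (0.0618). TKDP4, a trophoblast Kunitz domain protein, measured 540.2, 127, 174, 383 and 90.4 CPM in the ED and 115, 24.9, 61.1, 139.7 and 27.9 CPM in the EEM. It was higher in the ED of every embryo, with overlap between embryos (log2 fold change 1.86 ± 0.21, adjusted p = 4.91e-04). TKDP1 measured 16759, 7964, 5056, 9899 and 6192 CPM in the ED and 18426, 4479, 6743, 21932 and 2768 CPM in the EEM and was not called. Genes of both families are similar in sequence, and their reads may be split between copies. PEG10, an imprinted gene needed for the placenta, measured 16.8, 11.5, 48.5, 22.2 and 18.8 CPM in the ED and 7.91, 2.43, 5.11, 3.49 and 7.57 CPM in the EEM (log2 fold change 2.12 ± 0.33, adjusted p = 0.00392), and it was the 1 gene called of 24 other trophoblast products.

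The 20 genes called higher in the EEM held 15 with a symbol of their own. SLC10A4 (Entrez 540151), of the sodium and bile acid transporter family, measured 75.6, 29.5, 120.1, 93.1 and 47.8 CPM in the EEM and 36.6, 13.7, 63.1, 23.3 and 18.3 CPM in the ED (log2 fold change -1.28 ± 0.21, adjusted p = 0.00524). TM4SF1, a membrane protein related to tetraspanins, measured 47.7, 69.4, 161, 149 and 44.0 CPM in the EEM and 24.4, 24.5, 79.0, 37.5 and 23.3 CPM in the ED (log2 fold change -1.26 ± 0.21, adjusted p = 0.00627). Each embryo had more of both in the EEM, the ranges of the tissues overlapped, and these were the 2 named genes that kept the call whichever embryo was left out. XKR4 (log2 fold change -2.03 ± 0.38), the EGF receptor ligand AREG (-1.39 ± 0.26) and the sodium channel gene SCN3A (-1.56 ± 0.30) each lost it in 1 case, XKR4 and AREG without IVP14 (adjusted p = 0.0514 and 0.0662) and SCN3A without IVPF14 (0.0511). The other 10 (FSHB, CRIPTO, OTUD6A, HESX1, AHSG, RNF150, F5, PAGE4, NRGN and ARHGEF6) lost it without at least 3 of the embryos, and their log2 fold changes lay between -2.38 and -0.78. XKR4 and PAGE4 were the 2 of the 15 whose tissues did not overlap.

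Some lists had no member called, which is near the shares of all genes (3.15% and 0.135%) for lists of this length. Of 37 genes of replication and mitosis, 31 immediate early genes and 12 interferon-stimulated genes tested, edgeR called 0 in either direction. At an unadjusted p under 0.05 there were 1, 6 and 1 of them, limma voom called 0, and DESeq2 called 2 immediate early genes higher in the EEM. MKI67, a protein of dividing cells, measured 159 ± 74.3 CPM in the ED and 158 ± 20.5 CPM in the EEM (mean ± SD, n = 5). FOS, an immediate early transcription factor, measured 62.7 ± 23.1 CPM in the ED and 99.2 ± 64.7 CPM in the EEM. Of 20 genes listed under DNA methylation, 1, the cytidine deaminase gene APOBEC1, was called higher in the ED (log2 fold change 1.11 ± 0.23). It was not called without IVP11 (adjusted p = 0.0987), IVP14 (0.11) or IVPF14 (0.0806). A count of 1 in 20 is near the 3.15% of all genes and no result about DNA methylation. The de novo methyltransferase gene DNMT3B measured 115, 118, 340.4, 135 and 166 CPM in the ED and 49.96, 157, 82.5, 94.6 and 82.2 CPM in the EEM and was not called (log2 fold change 0.89 ± 0.32, adjusted p = 0.242). Over all lists together, 58 genes were called higher in the ED and 3, CRIPTO, HESX1 and AHSG, higher in the EEM. The 3 became 9 with DESeq2 and 0 to 4 with 1 embryo left out.

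**Figure D3:**
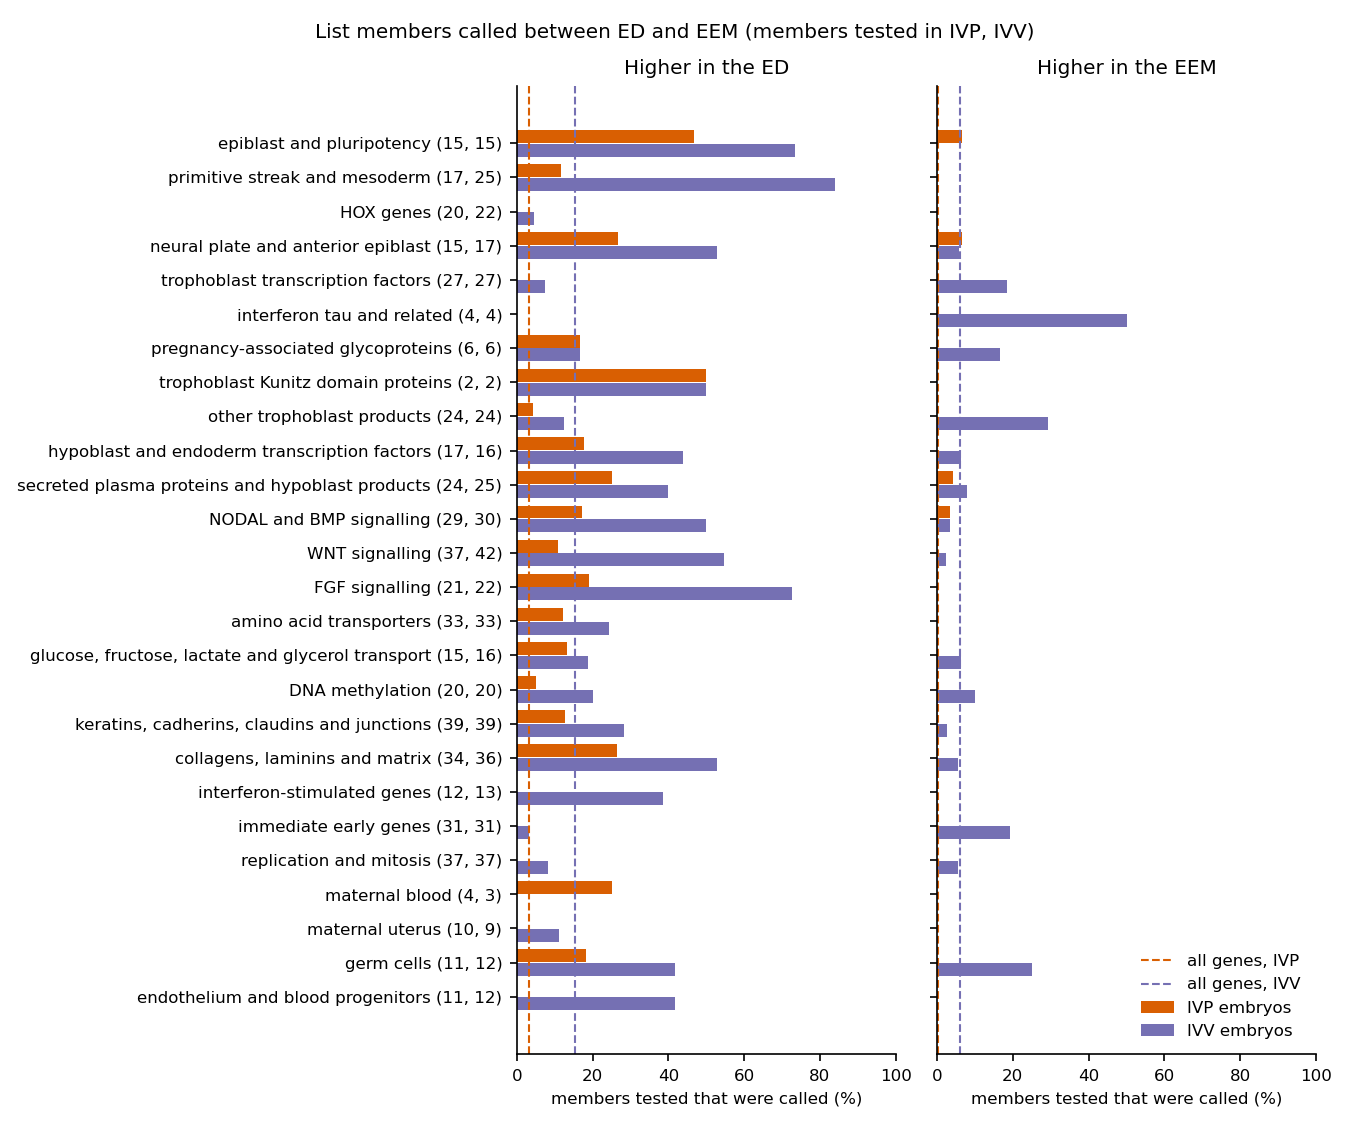
Share of tested members of each gene list that was called higher in the ED (left) or higher in the EEM (right), in 5 IVP and 8 IVV embryos, with the members tested in IVP and IVV in brackets. Dashed lines give the shares of all genes tested, 3.15% and 0.135% in IVP and 15.3% and 5.96% in IVV embryos; the numbers of embryos differ, so the lengths of the bars are not comparable between procedures.

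The same test in the 8 IVV embryos called 2320 genes higher in the ED (15.3%) and 902 higher in the EEM (5.96%) of 15138 tested. These embryos share no library with the IVP embryos, but 8 pairs detect more than 5 pairs, and the biological coefficient of variation was 25.8% in IVV and 31.5% in IVP embryos. The numbers of calls are therefore not compared. Over the 14475 genes tested in both, the log2 fold changes of the 2 comparisons had a Pearson correlation of 0.798 and a Spearman correlation of 0.509, across genes, which are not independent of each other.

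Most of the differences called in IVV embryos had the same direction in IVP embryos. Of 2060 genes called higher in the ED of IVV embryos and tested in both, 437 (21.2%) were also called in IVP embryos, 1360 had the same sign without a call, 263 had the other sign without a call, and 0 were called in the opposite direction. Their median log2 fold change was 1.47 in IVV and 0.63 in IVP embryos. Read the other way, 437 of the 450 genes called higher in the ED of IVP embryos (97.1%) were called so in IVV embryos too. Of 883 genes called higher in the EEM of IVV embryos, 9 (1.02%) were called in IVP embryos, 775 had the same sign without a call, and 99 the other sign. Their median log2 fold change was -0.47 in IVV and -0.28 in IVP embryos. Of the 16 genes called higher in the EEM of IVP embryos and tested in both, the same 9 were called in IVV embryos, and over the 16 the median was -1.27 in IVP and -0.57 in IVV embryos. Over the 450 genes it was 2.60 in IVP and 3.28 in IVV embryos. A set chosen by the test in one procedure tends to show its larger differences there, so these medians are descriptions.

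The share kept went with the size of the difference in IVV embryos. Among genes with a log2 fold change under 1 in IVV embryos, 8 of 620 (1.29%) were called in IVP embryos. It was 63 of 713 (8.84%) between 1 and 2, 200 of 505 (39.6%) between 2 and 4, and 166 of 222 (74.8%) at 4 or above. In the last class 219 of 222 had the same sign in IVP embryos, with a median log2 fold change of 3.60. These classes hold only genes tested in both procedures. Without that limit, 617 genes called higher in the ED of IVV embryos lay between 2 and 4, and 326 at 4 or above. Genes too low to be tested in IVP embryos thus do not count against the share kept. NANOG, EOMES, SLC7A3 and POU5F1 were among the genes called in both procedures. In IVV embryos, POU5F1 had a lowest, median and highest ED value of 26.9, 81.0 and 228 CPM and EEM values of 0.419, 1.22 and 2.24 CPM.

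**Figure D4:**
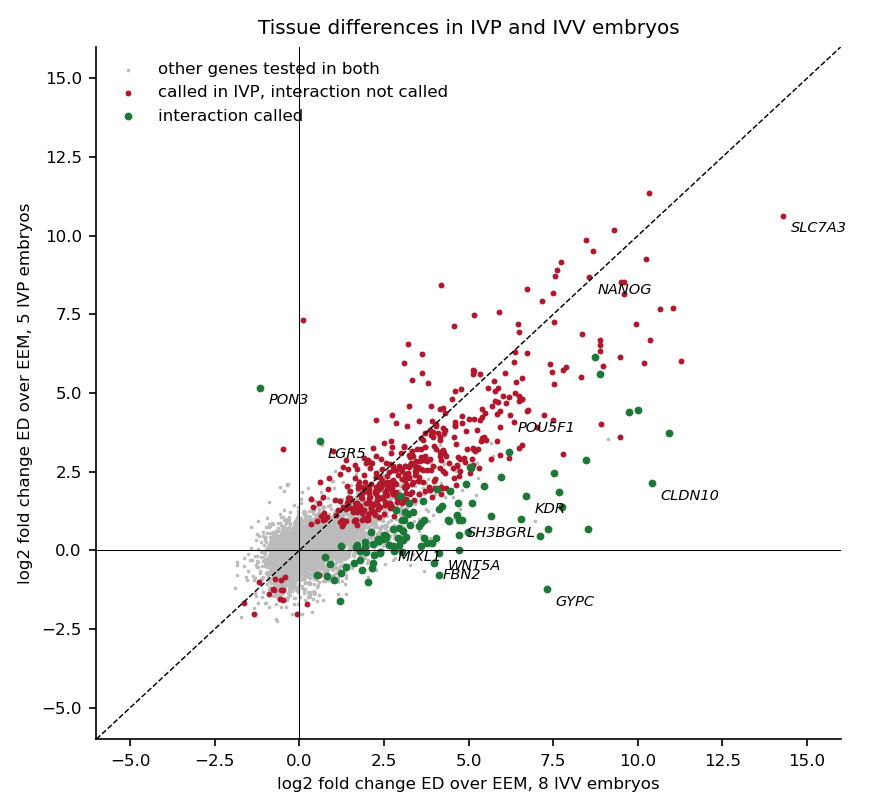
Log2 fold change of ED over EEM in the 5 IVP embryos against that in the 8 IVV embryos, 1 point per gene tested in both, with the line of equal fold changes dashed. Most genes called in IVP embryos lie on the side of the ED, 16 of them lie on the side of the EEM, and most genes with a called interaction (green) lie below the dashed line.

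Whether the ED minus EEM difference itself differed between IVP and IVV embryos was tested as an interaction in the 26 libraries of the 13 embryos. Of 16784 genes tested, the signed difference was smaller in IVP embryos, that is shifted toward the EEM, for 154 (0.918%) and larger for 18 (0.107%), and 1727 genes had an unadjusted p under 0.05. Of the 2060 genes called higher in the ED of IVV embryos, the interaction was called for 103, all smaller in IVP embryos. They were chosen for a difference in IVV libraries that also enter the interaction, which favours this direction. Of the 103 there were 45 with a log2 fold change between 2 and 4 and 40 at 4 or above in IVV embryos. Of the 883 genes called higher in the EEM of IVV embryos edgeR called it for 0, with 92 at an unadjusted p under 0.05, 6 called by DESeq2 and 0 by limma voom. For NANOG the difference of log2 fold changes was 0.09 ± 0.52 (SE, adjusted p = 0.992) and for EOMES 1.17 ± 1.06 (0.834). For SLC7A3 it was -3.58 ± 1.31 (adjusted p = 0.305), for POU5F1 -1.93 ± 0.49 (0.0653) and for NODAL 2.65 ± 0.71 (0.0784). edgeR called none of these 5, which does not show that the differences were alike. DESeq2 called POU5F1 (adjusted p = 0.00644) and NODAL (0.0181), and limma voom called POU5F1 (0.0351) but not NODAL (0.0778). For EOMES both gave a fold change of the other sign, without a call. For SLC7A3 DESeq2 gave -1.96 and limma voom -1.58, also without a call. NANOG, EOMES and SLC7A3 were at the floor in the EEM of IVP embryos, so their fitted values depend on the prior count. VRTN was called by edgeR, at -2.57 ± 0.57 (adjusted p = 0.0322), but not without IVP10 (adjusted p = 0.0652), IVP11 (0.0946), IVP14 (0.0568) or IVPF14 (0.0991).

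Streak and mesoderm genes were among those with a smaller difference in IVP embryos. Of the 17 list members tested in both comparisons, 14 were called higher in the ED of IVV embryos and 2 of these in IVP embryos. The share of all such genes was 21.2%, so the 2 are no result about this list. In the IVV embryos on their own, 25 members were tested and 21 called higher in the ED, beside 15.3% of all genes. Their median log2 fold change was 2.92 over the 25, and that in IVP embryos was 0.40 over the 17. Members too low to be tested in IVP embryos are not among the 14. The interaction was called for MIXL1, KDR, TBX6 and WNT3, each smaller in IVP embryos. These were 4 of 27 members tested, beside 0.918% of all genes. MIXL1 had a lowest, median and highest ED value of 3.53, 7.88 and 17.2 CPM in IVV embryos, above all 5 IVP values, and EEM values of 0.563, 1.61 and 2.32 CPM. The difference of its log2 fold changes was -2.45 ± 0.44 (SE, adjusted p = 0.00744), and the call held without any single IVP embryo. KDR, a VEGF receptor of mesoderm and endothelium, measured 0, 0.430, 0.638, 0.572 and 0.231 CPM in the ED of IVP embryos and 0.706, 10.3 and 19.6 CPM in that of IVV embryos. Its interaction (-5.00 ± 0.86, adjusted p = 0.00541) was not called without IVP11 (adjusted p = 0.0569). The calls of TBX6, a T-box factor of paraxial mesoderm (-2.51 ± 0.51), and of the ligand gene WNT3 (-2.69 ± 0.62) did not hold without IVP10 (adjusted p = 0.0576 and 0.115) or IVPF14 (0.0584 and 0.101). TBX6 also lost it without IVP14 (0.0512), and WNT3 without IVP11 (0.0918) or IVPF13 (0.0949).

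In WNT5A, FBN2, LY6E, NRP1, UNC5C, SH3BGRL and ZDHHC15, which also had a smaller difference in IVP embryos, the EEM of every IVP embryo lay above the median of the EEM of IVV embryos. WNT5A, a ligand of noncanonical WNT signalling, measured 0.870, 0.521, 1.05, 0.362 and 0.636 CPM in the ED and 0.795, 0.530, 0.815, 0.589 and 0.801 CPM in the EEM of IVP embryos. In IVV embryos the lowest, median and highest values were 0.989, 5.07 and 11.5 CPM in the ED and 0.113, 0.289 and 0.617 CPM in the EEM, so that the tissues differed there and overlapped in IVP embryos (interaction -4.18 ± 0.51, adjusted p = 2.78e-04). FBN2, a fibrillin of elastic matrix, measured 0.778, 0.792, 1.08, 0.839 and 0.887 CPM in the ED and 1.47, 0.452, 1.52, 1.00 and 1.88 CPM in the EEM of IVP embryos. Its IVV values were 0.797, 2.91 and 5.10 CPM in the ED and 0.0855, 0.203 and 0.310 CPM in the EEM (interaction -4.35 ± 0.45, adjusted p = 5.51e-05). LY6E, a membrane protein anchored by lipid, measured 18.6, 37.98, 28.6, 35.0 and 32.0 CPM in the EEM of IVP embryos and 2.76, 6.14 and 16.6 CPM in that of IVV embryos, beside ED values of 24.7 to 54.7 and 21.1 to 72.9 CPM (interaction -2.75 ± 0.32, adjusted p = 1.70e-04). Among these 7 genes the EEM ranges of the procedures overlapped for WNT5A and not for the others. NRP1, a co-receptor of VEGF and semaphorins (-3.62 ± 0.47, adjusted p = 4.76e-04), UNC5C, a netrin receptor (-4.53 ± 0.62, 7.93e-04), and SH3BGRL, a thioredoxin-like protein (-3.74 ± 0.39, 5.51e-05), were called in the same direction. So were the ligand gene WNT4 (-2.43 ± 0.45, 0.00927) and the proteoglycan gene VCAN (-1.31 ± 0.25, 0.0112). VCAN was lower in the ED than in the EEM of all 5 IVP embryos and higher in the ED of all 8 IVV embryos. The calls named in this paragraph held without any single IVP embryo.

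A larger difference in IVP embryos was rare. SCTR, the receptor of secretin, measured 0.333, 0.724, 5.26, 2.31 and 0.482 CPM in the ED and 0.0204, 0.118, 0.163, 0.218 and 0 CPM in the EEM of IVP embryos, without overlap, and at most 0.184 CPM in either tissue of IVV embryos (interaction 4.28 ± 0.74, adjusted p = 0.00549). PON3, a lactonase that associates with lipoproteins, measured 0.204, 0.249, 0.494, 0.210 and 0.675 CPM in the ED of IVP embryos, where the EEM was at the floor, at least 6.11-fold lower. In IVV embryos its values were 0.0885, 0.238 and 0.666 CPM in the ED and 0, 0.876 and 1.39 CPM in the EEM, higher in the EEM of 7 of 8 embryos (adjusted p of the interaction = 0.00783). Both calls held without any single IVP embryo. LGR5 was also called (2.89 ± 0.69, adjusted p = 0.0484), but not without IVP11 (adjusted p = 0.0783), IVP14 (0.127), IVPF13 (0.0541) or IVPF14 (0.0976). Of the 10 genes with a symbol of their own and the smallest p for a larger difference, 4 were not called by edgeR, NOXRED1 (adjusted p = 0.0553), CCNP (0.0565), ACSL1 (0.0625) and CCDC80 (0.0625). DESeq2 (adjusted p = 0.00290 to 0.0120) and limma voom (0.0312 to 0.0486) called all 4. NOXRED1 and CCNP were at the floor in the EEM of IVP embryos, and the differences were 0.99 ± 0.25 for the acyl-CoA synthetase gene ACSL1 and 3.74 ± 0.95 for CCDC80. The IVP and IVV embryos differed in the XIST levels given above as well, and the part of this in the interaction was not tested.

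**Figure D5:**
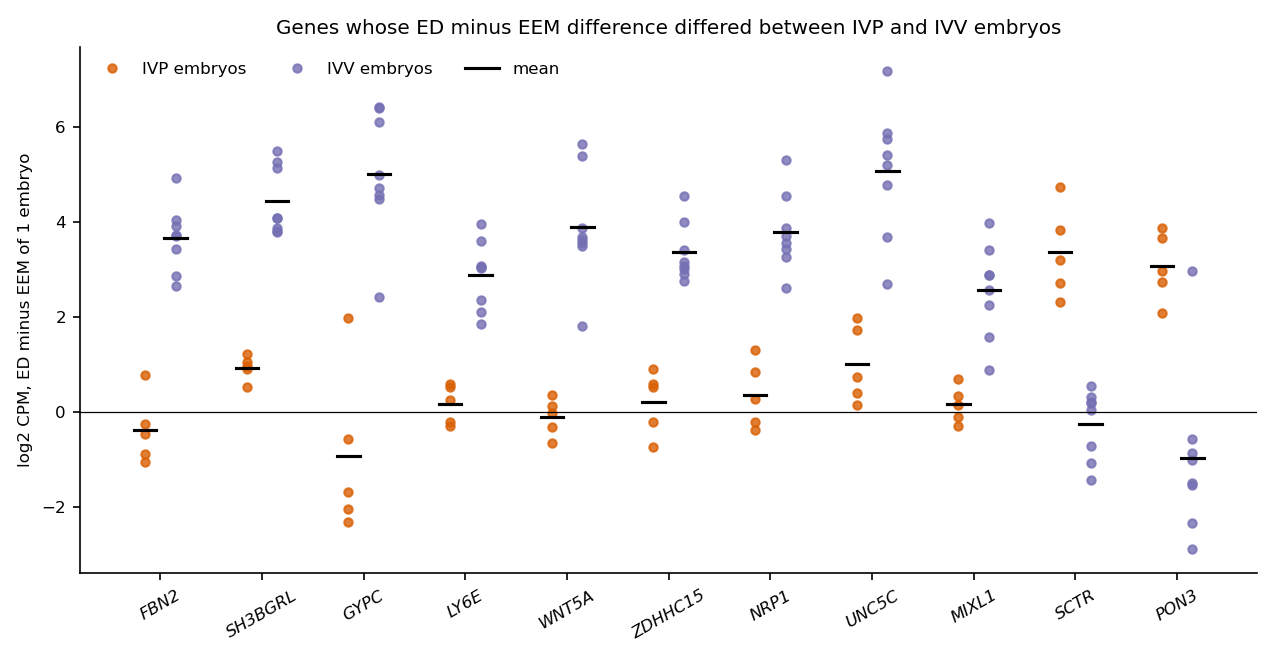
ED minus EEM difference of log2 CPM (prior count 2) in each of 5 IVP and 8 IVV embryos for 11 genes whose interaction was called, with the mean as a bar. The embryos of the 2 procedures do not overlap for FBN2, SH3BGRL, GYPC, WNT5A and the other genes shown, except PON3, in which 1 IVV embryo lies among the IVP embryos.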

How the data were processed

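RNA of ED and EEM pieces was sequenced as non-stranded poly(A) libraries with paired reads of 100 bases. The authors filtered the reads with SOAPnuke, used STAR (2.7.0b) for alignment to ARS-UCD1.3, and obtained gene counts with featureCounts (Subread 2.0.3). The deposited values are these raw counts of each library for 35092 Entrez gene IDs, without a filter or normalization, and all columns were mapped to samples. The submitters' processing notes also name FastQC (0.11.9) and Trimmomatic. Without strand, a gene and its antisense partner cannot be told apart. RefSeq's annotation of ARS-UCD2.0 gave symbols for 31630 IDs (99.5% of all counts), and no coordinates were used. In the 10 libraries 5527 entries held 2 counts, against 4569 with 1, 4517 with 3 and 4500 with 4, and halved counts were tried as an alternative.

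Libraries were grouped by the labels and paired by the embryo in the title. Both tissues of a pair come from the same embryo. Correlations of their deviations from the group means ranged from -0.24 to 0.60 in IVP pairs, against -0.45 to 0.33 between embryos. Counts were tested with edgeR 4.0.16 in R 4.3.3 (TMM, filterByExpr with at least 10 counts, quasi-likelihood test, Benjamini-Hochberg adjustment over all genes tested, threshold 0.05), with embryo as a block. SE is that of the log2 fold change. CPM use TMM factors over all 30 libraries, and log2 CPM a prior count of 2. A group was at the floor when each library held at most 3 counts, and fitted fold changes of such genes are no bounds. A lower limit of a fold sets 3 counts in each library of that group. It divides the mean CPM of the other group by the mean CPM so obtained, and holds for the means and not for each embryo. CPM are not scaled by gene length, so levels were not compared between genes.

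The genes named are NANOG, EOMES and SLC7A3, the 15 genes per direction with the smallest p in IVP embryos and the 10 of the interaction, both with a symbol of their own, and up to 6 called members per hand-written list with defining members that were not called. The comparison, its members and the lists were chosen with earlier results of these data known, and list counts are descriptions without a test. 1 gene that meets this rule is not reported here. XIST was added after its values were seen. Alternatives were DESeq2 1.42.0, limma voom (limma 3.58.1), 1 surrogate variable (sva 3.50.0), other scalings, filters and sets of embryos, and a fit without the block. The joint fit for IVV embryos was added after the data were seen. The scripts were tested on simulated data. Promoter motifs were planned, but no sequence was used here and they were not run. Methylation data were not analysed here. Replicates are embryos, and p-values measure the spread between these embryos.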

Additional observations from a re-analysis of the deposited data

Results flagged for a closer look

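The ED minus EEM difference of IVP embryos minus that of IVV embryos, as a log2 fold change tested by the interaction term (edgeR, adjusted p under 0.05), was called for 154 genes (smaller in IVP) and 18 (larger), of which those named here follow. Among genes of the streak, mesoderm and endothelium it was -2.45 for MIXL1, -2.51 for TBX6, -5.00 for KDR and -3.02 for LMO2. WNT genes gave -2.69 for WNT3, -2.43 for WNT4, -4.18 for WNT5A and -4.50 for SFRP2, and 2.89 for LGR5 in the other direction. Of the NODAL and BMP list, ID4 gave -1.59 and SMAD6 -2.47, and of the maternal uterus list MSX1 gave -1.89. Matrix and junction genes gave -4.35 for FBN2, -1.31 for VCAN, -3.44 for TNC, -5.38 for CDH11 and -8.38 for CLDN10. Other named genes smaller in IVP embryos were VRTN at -2.57, NRP1 at -3.62, LHX4 at -11.96, UNC5C at -4.53, LY6E at -2.75, SH3BGRL at -3.74, GYPC at -8.53, ZDHHC15 at -3.64, ZMAT4 at -11.69, HOXA13 at -10.77 and S100A8 at -8.93. Larger in IVP embryos, beside LGR5, were EDA2R at 9.44, H4C16 at 7.43, PON3 at 6.37, SH2D6 at 5.53 and SCTR at 4.28.

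Of these 33 genes, 18 kept the call whichever IVP embryo was left out. VRTN, CDH11, H4C16, ID4, KDR, LGR5, LMO2, MSX1, S100A8, SFRP2, SH2D6, SMAD6, TBX6, TNC and WNT3 lost it in at least 1 case, and TNC in all 5. In GYPC, LHX4, ZMAT4, HOXA13, CLDN10, CDH11, S100A8, SFRP2, EDA2R, H4C16, PON3 and SH2D6 at least 1 of the 4 groups was at the floor, so the fitted value depends on the prior count and bounds nothing. HOXA13, for example, had 0 counts in the EEM of IVP10, IVP11 and IVPF13 and 1.58 and 2.24 CPM in that of IVP14 and IVPF14. LHX4, a LIM homeobox gene, measured 1.59, 0, 0.870, 0 and 0.741 CPM in the EEM of IVP embryos and at most 0.0193 CPM in their ED.

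For AIF1L, whose ED minus EEM difference was 3.66 to 3.82 in the other 4 embryos, that of IVPF13 lay apart, at 4.27 on the log2 CPM scale. It was 1 far value among 33 groups examined, and chance gives about 1 in 20.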

How the results depend on the processing

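With 5 pairs, the number of calls depended on single embryos and on the setting. In IVP embryos, the 468 genes higher in the ED became 199 with at least 10 counts in every library, 239 when tested against a log2 fold change of 1 (glmTreat), 243 in the 3 embryos with titles ending in C, 0 in the 2 ending in A (966 unadjusted) and 249 to 429 with 1 embryo left out. The 20 higher in the EEM became 4 without the block, 72 with DESeq2, 84 without a filter, 9 with the stricter filter, 3 with glmTreat, 109 in the joint fit, 13 with all 13 IVP libraries, 0 with titles ending in A, and 10 to 27 with 1 embryo left out. Without the replicate block, that is ignoring the pairing, 351 genes were called higher in the ED. The 58 list members higher in the ED became 24 (stricter filter), 34 (glmTreat), 36 (C), 0 (A) and 34 to 56 (1 embryo left out), and the 3 higher in the EEM 9 (DESeq2), 8 (no filter), 11 (joint fit), 1 (totals or stricter filter) and 0 (no block, glmTreat, surrogate variable, all 13 libraries, C or A). In IVV embryos, 2320 became 1369 with the stricter filter and 1037 with glmTreat, and 902 became 73 without the block, 1803 with DESeq2, 240 with library totals, 522 with the stricter filter and 16 with glmTreat. Library totals in place of TMM moved the median of all genes by 0.11 in IVP and 0.18 in IVV embryos, and the share of IVV calls higher in the ED was 72.0% with TMM, 62.7% with DESeq2 size factors, 92.7% with totals, 57.7% with DESeq2, 98.5% with glmTreat and 95.9% without the block. In IVP embryos it was 95.9%, and between 86.5% (joint fit) and 98.9%. Of the genes called in IVV embryos, those also called in IVP embryos became 219 of 840 (glmTreat) and 232 to 385 (1 embryo left out) for the ED, and 36 of 1781 (DESeq2), 0 of 58 (no block), 0 of 7 (glmTreat) and 4 to 9 for the EEM, so that the number called in IVV embryos moved as well. For the interaction, the 18 larger became 33 without the block, 45 with DESeq2, 37 with voom, 52 without a filter, 0 with the stricter filter (867 unadjusted) and 11 with halved counts, and the 154 smaller became 390 with DESeq2, 292 with voom, 304 without a filter, 11 with the stricter filter and 93 to 131 with 1 embryo left out. The cause was not tested. Of 78 named genes called in IVP embryos 40 kept the call in each leave-one-out fit, and none of the named genes changed sign with a call under any alternative.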

Other observations

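The 2 IVP ED libraries and 1 IVP EEM library had no partner and entered no test between tissues except the alternative with all 13 IVP libraries. In the ED of IVPF10, NANOG measured 5.79, EOMES 4.55, SLC7A3 12.7 and POU5F1 23.6 CPM, and in that of IVPF15 they measured 2.71, 5.51, 3.52 and 37.3 CPM. In the EEM of IVPF9, NANOG, EOMES and SLC7A3 had 0 counts and POU5F1 measured 2.11 CPM.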
